A study of Homo sapiens with 2 samples.

Results

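Carbonic anhydrases and acid-base transporters were described after siRNA transfection of HCT116 cells, a widely used line from a human colorectal carcinoma. The group was fixed by name as CA2, CA9, CA12, SLC4A2, SLC4A7, SLC16A1 and SLC16A3, and its members are all probe sets whose platform gene symbol is exactly one of these names. This gave 13 probe sets for 4 of the 7 genes, CA2, CA12, SLC4A2 and SLC4A7, out of 12561 genes measured on the arrays. In the annotation used here no probe set carried the symbol CA9, SLC16A1 or SLC16A3, and these 3 genes were not analysed here. The 7 genes were chosen by role with the log2 ratios of these same arrays already known, so their values are a description and carry no test. One sample had received siRNAs against JMJD1A and JMJD1B, the older names of the histone H3K9 demethylases KDM3A and KDM3B, and the other a control siRNA. Cells of both groups were grown in DMEM with serum, transfected with the lipid reagent RNAimax and sampled at 2 days, and each group held 1 array. No replicate error could therefore be given, and 1 array a group limits how precise any difference can be. The siRNA sequences were not used here, so matches to unintended transcripts were not tested.

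Cells keep their internal pH near neutral by moving protons, bicarbonate and lactate across membranes. Carbonic anhydrases interconvert carbon dioxide and bicarbonate. CA2 is the abundant cytosolic form, while CA9 and CA12 are membrane-bound with the active site facing outward, and both are known to rise in carcinoma cells at low oxygen through the hypoxia-inducible factors (HIF). SLC4A2 (AE2) exchanges chloride for bicarbonate and so exports base, and SLC4A7 (NBCn1) brings bicarbonate into the cell with sodium. SLC16A1 (MCT1) and SLC16A3 (MCT4) carry lactate together with a proton. In the intestinal epithelium such exchangers also serve fluid and electrolyte transport.

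The annotated promoters are shown for the genes whose probe sets changed most or disagreed, since HIF proteins are known to bind a short core that reads ACGTG or GCGTG. Each window holds 300 bases around a transcript start from RefSeq (build GRCh38.p14), written 5′ to 3′ on the strand of the gene. Capitals mark ACGTG or GCGTG on either strand, so that CACGT and CACGC are the same letters read on the other strand, and a CACGTG run holds ACGTG on both strands. CA12 has 1 window, at chr15:63381797-63382096 (minus strand). SLC4A2 has 4 windows on the plus strand, of which the first, chr7:151057950-151058249, and the third, chr7:151062297-151062596, are shown. SLC4A7 has 2 windows, and the upstream one, at chr3:27484335-27484634 (minus strand), is shown.
CA12: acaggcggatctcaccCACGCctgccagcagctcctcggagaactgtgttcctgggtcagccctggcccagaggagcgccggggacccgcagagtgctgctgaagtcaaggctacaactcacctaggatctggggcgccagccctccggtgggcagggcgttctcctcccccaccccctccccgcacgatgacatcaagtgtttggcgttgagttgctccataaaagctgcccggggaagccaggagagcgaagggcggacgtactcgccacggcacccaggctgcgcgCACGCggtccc
SLC4A2 start 1: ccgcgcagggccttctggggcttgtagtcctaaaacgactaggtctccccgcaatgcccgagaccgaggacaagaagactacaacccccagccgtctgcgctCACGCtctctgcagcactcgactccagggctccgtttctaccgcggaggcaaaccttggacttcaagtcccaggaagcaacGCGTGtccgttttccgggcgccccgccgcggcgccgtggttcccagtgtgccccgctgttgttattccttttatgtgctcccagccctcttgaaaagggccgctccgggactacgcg
SLC4A2 start 3: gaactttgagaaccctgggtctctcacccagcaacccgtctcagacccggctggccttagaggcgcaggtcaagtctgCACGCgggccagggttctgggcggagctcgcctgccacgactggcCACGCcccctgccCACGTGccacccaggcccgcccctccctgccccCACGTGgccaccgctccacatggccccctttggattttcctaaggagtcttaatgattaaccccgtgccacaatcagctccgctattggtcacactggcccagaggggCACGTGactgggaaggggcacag
SLC4A7 upstream start: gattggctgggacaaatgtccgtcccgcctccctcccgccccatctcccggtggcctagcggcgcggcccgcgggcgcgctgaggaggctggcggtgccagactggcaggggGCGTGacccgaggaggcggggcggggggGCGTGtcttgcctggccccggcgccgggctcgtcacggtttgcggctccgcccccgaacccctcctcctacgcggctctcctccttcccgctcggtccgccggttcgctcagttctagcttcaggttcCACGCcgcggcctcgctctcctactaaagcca

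The CA12 window held GCGTG at 2 places, both on the other strand, at positions -234 and 40 counted with the first transcribed base as 1, and no ACGTG. The first SLC4A2 window held 2 GCGTG matches, at -148 and -67, and the SLC4A7 window shown 3. Of the windows not shown, the other SLC4A7 one held neither core, and the second SLC4A2 one held 2 GCGTG matches and no ACGTG. Of 35116 windows of this length, 36.5% held GCGTG, 21.4% ACGTG and 48.4% at least one of these, so such matches were common and a match is not a site. The third SLC4A2 window held 6 ACGTG and 2 GCGTG matches, and the fourth, which overlaps it, held 6 and 1. The 6 ACGTG matches of the third window are the 2 strands of CACGTG, the letters known as an E-box, at 3 places. These lie at -114, -81 and 28, and the fourth window holds the same 3. CACGTG was found in 7.26% of all windows and at 3 or more places in 0.094%. The first and second SLC4A2 windows held none, nor did the windows of CA12 and SLC4A7. GGGCGG and CCAAT were searched as well, and CACGTG and this window were picked with the matches in view. These shares make no allowance for that choice and are no test. Transcripts from different starts were not told apart by the arrays as used here, and no factor binding was measured.

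The arrays were first checked on the targeted genes. The KDM3B probe sets read 496 and 315 on the JMJD1A/JMJD1B siRNA array, against 3031 and 2765 on the control array. The measured KDM3A probe set read 3323 on the JMJD1A/JMJD1B siRNA array and 3884 on the control array, so 85.6% of the control signal was left. Of 10 colorectal epithelial markers 9 were measured, with a summed signal of 121871 on the JMJD1A/JMJD1B siRNA array and 79170 on the control array, EPCAM and the keratins KRT8, KRT18 and KRT19 among them. The bright keratins carry most of that sum, and of the 9 markers 7 had a log2 ratio above 0 and 2 below, KRT20 at -0.99 and CDX2 at -0.46. At least 2-fold higher were 3 of the 9, KRT19 at 1.26, CDH1 at 1.11 and CEACAM5 at 1.28, beside 8.91% of all measured genes. The control signal of CEACAM5, 38.9, was under the signal filter of 50.4, so it was at least 1.88-fold higher against the filter. Of 9 fibroblast markers 2 were measured, with summed signals of 698 on the JMJD1A/JMJD1B siRNA array and 363 on the control array. Of 10 leukocyte, 7 endothelial and 4 erythroid markers, 3, 1 and 1 were measured. On the JMJD1A/JMJD1B siRNA array their summed signals were 241, 158 and 301.2, against 196, 116 and 162 on the control array. COL1A2, COL3A1, PTPRC, CDH5 and VWF lay below the signal filter. The part of these markers in the results below was not tested. A lower signal in such bulk RNA can come from fewer expressing cells or from less RNA per cell, which cannot be told apart. The 18 hybridization control probe sets, which report spiked-in transcripts, had ratios above 1, with a median of 0.61 on the log2 scale, and ratios on the scale of these controls are given below where they change a call. On that scale KDM3A would stand at -0.84, and KRT19, CDH1 and CEACAM5 at 0.65, 0.50 and 0.67, each under 2-fold. The markers KRT20 and CDX2, under 2-fold as deposited, would both be past 2-fold lower on that scale.

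The 4 measured genes did not move together. CA12 was higher on the JMJD1A/JMJD1B siRNA array, SLC4A2 was much lower, CA2 was nearly level, and the probe sets of SLC4A7 went both ways. A gene is given by its brightest probe set, that with the highest log2 signal averaged over both arrays, and it counted as measured where this average reached the median of all probe sets, a signal of 50.4. By that probe set 1 of the 4 was at least 2-fold higher, beside 8.91% of all measured genes, and 1 was at least 2-fold lower, beside 8.53%. The median log2 ratio of the 4 was -0.17, and that of all measured genes was 0.04. Among single probe sets of the 4 genes, 11 of 13 were measured, of which 9 were higher and 2 lower on the JMJD1A/JMJD1B siRNA array. Of the 9, 5 report CA12 and 3 SLC4A7, so they are not separate genes, and CA2 was nearly level. Over all measured genes 6547 of 12561 had a log2 ratio above 0. On the hybridization control scale CA2 would stand at -0.60 and SLC4A7 probe set 207603_at at -0.28, both lower.

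**Figure D1:**
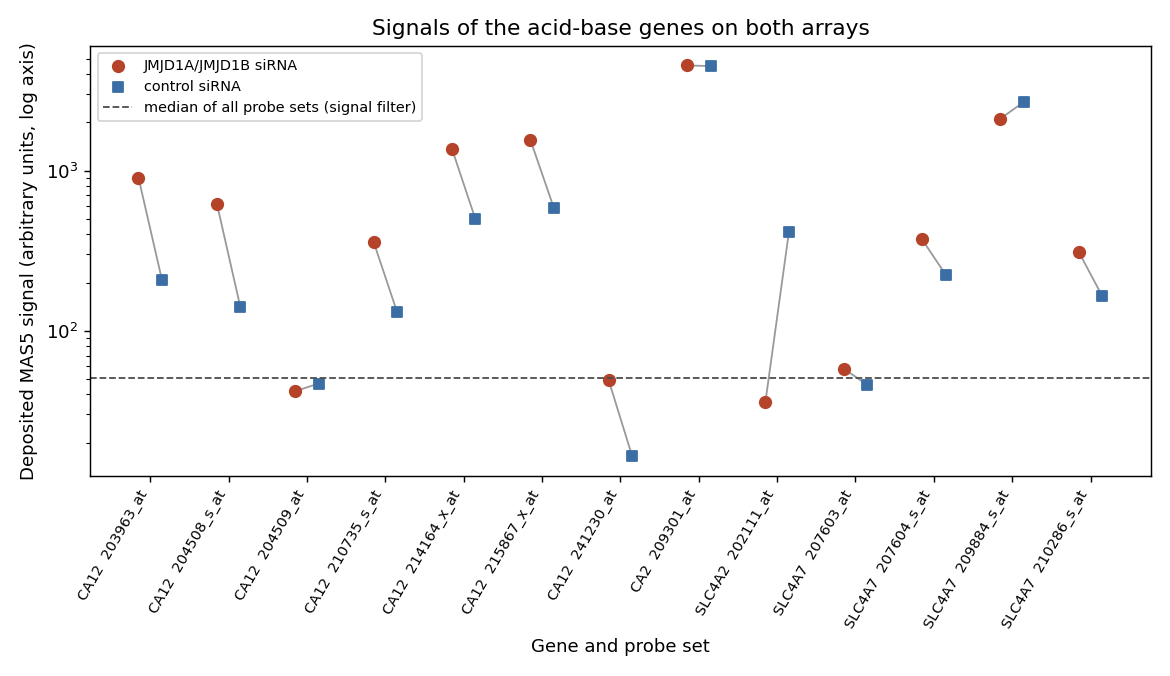
Signal of each probe set of CA12, CA2, SLC4A2 and SLC4A7 on the JMJD1A/JMJD1B siRNA array (circles) and the control array (squares), in the authors' MAS5 units on a log axis, with 1 array a group and the filter of 50.4 dashed. Each of the 5 measured CA12 probe sets has its circle above its square, SLC4A2 has its circle below the filter, and only 1 of 4 SLC4A7 probe sets is lower.

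CA12, the outward-facing membrane anhydrase, was at least 2-fold higher by every one of its 5 measured probe sets. The brightest, 215867_x_at, read 1561 on the JMJD1A/JMJD1B siRNA array and 586 on the control array, which is 2.66-fold higher (log2 ratio 1.41). Probe set 214164_x_at read 1368 with the JMJD1A/JMJD1B siRNAs and 497 with the control siRNA (2.75-fold), and 210735_s_at read 359 with the JMJD1A/JMJD1B siRNAs and 131 with the control siRNA (2.74-fold). These 3 gave nearly the same ratio. The other two measured probe sets gave larger ones. Probe set 203963_at read 902 on the JMJD1A/JMJD1B siRNA array and 207 on the control array (4.35-fold), and 204508_s_at read 623 with the JMJD1A/JMJD1B siRNAs and 141 with the control siRNA (4.43-fold). Over the 5 probe sets the log2 ratio averaged 1.72 ± 0.38 (SD over 5 probe sets of the same 2 hybridizations, which are not replicates). The remaining probe sets lay below the filter on both arrays. Probe set 241230_at read 49.2 with the JMJD1A/JMJD1B siRNAs and 16.5 with the control siRNA, and 204509_at read 42.0 with the JMJD1A/JMJD1B siRNAs and 46.8 with the control siRNA.

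The spread between the 5 measured CA12 probe sets was narrower than in most genes with this many measured. Their log2 ratios spanned 0.73, while the median span over the 269 genes with 5 measured probe sets was 1.22, and 79.9% of those genes spanned at least as much. By its brightest probe set CA12 ranked 432nd from the highest of 12561 genes, with 96.6% of them lower. Among the 2030 genes whose mean log2 signal lay within 0.5 of that of CA12, 7.14% were at least 2-fold higher. Probe sets ending in _x_at are those that the array's maker marks as holding probes that may match other transcripts. The brightest CA12 probe set, 215867_x_at, and the next brightest, 214164_x_at, are of this kind. Without _x_at and _s_at probe sets CA12 stood at 2.12 on the log2 scale. With the arrays set level on the hybridization controls the 5 log2 ratios would lie between 0.80 and 1.54, and 2 of them would stay at least 2-fold higher.

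CA2, the cytosolic anhydrase, had 1 probe set and read 4530.2 on the JMJD1A/JMJD1B siRNA array and 4494 on the control array. Its log2 ratio of 0.01 was smaller than the SD of 0.54 that a single probe set's log2 ratio showed over the 6192 genes that had more than 1 measured. That SD, taken from the differences between the 2 brightest probe sets of a gene, is the only measure of scatter these arrays give, and it leaves out the spread between samples. In the order of all genes CA2 lay near the middle, with 48.5% of them lower. On the hybridization control scale CA2 would stand at -0.60, beyond that SD. With 1 probe set and 1 array a group, a difference smaller than this scatter could not be detected.

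SLC4A2, the base-exporting chloride-bicarbonate exchanger, had the largest difference of the 4 genes. Its 1 probe set, 202111_at, read 35.7 on the JMJD1A/JMJD1B siRNA array and 411 on the control array. The signal left was 8.69% of the control, with a log2 ratio of -3.52, or 11.5-fold lower by the signals. The dimmer signal was under the filter of 50.4, and raising it to the filter leaves SLC4A2 at least 8.16-fold lower, a bound that takes the control signal as exact. The gene passed the filter only through its control signal, so a fall was the direction left to it. Since one signal is under the filter, no exact place of SLC4A2 among the genes is given. Of 1428 genes with a mean log2 signal within 0.5 of its own, 7.84% were at least 2-fold lower. No second probe set bears on this value. Of the 10 genes at least 8-fold lower by their brightest probe set, 4 had a second measured one, which was at least 2-fold lower in 3. Of the 112 genes at least 4-fold lower, 49 had a second measured probe set, and it was at least 2-fold lower in 37 and lower by any amount in 43. Over all measured genes 8.53% were at least 2-fold lower. The genes counted here were picked for large falls on these same arrays, so their counts are no check of SLC4A2.

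**Figure D2:**
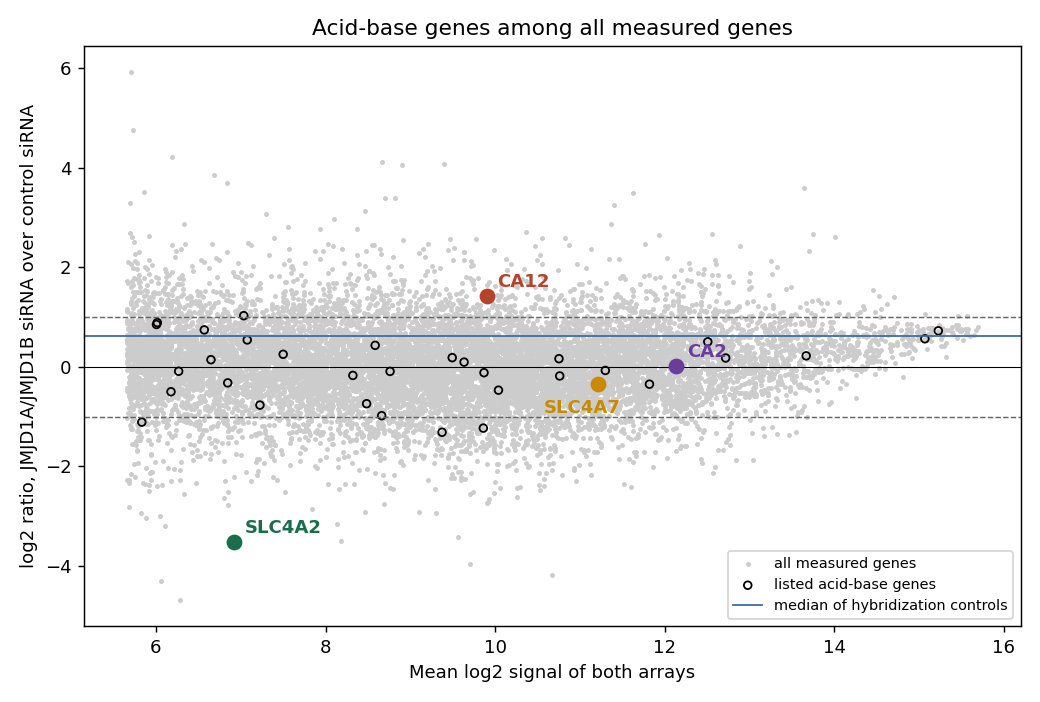
The log2 ratio of each of 12561 measured genes (JMJD1A/JMJD1B siRNA over control siRNA, vertical axis) against its mean log2 signal (horizontal axis), with listed acid-base genes as open circles, 2-fold as dashed lines and the hybridization control median of 0.61 as a solid line. SLC4A2 at -3.52 lies at the lower edge of the cloud, CA12 at 1.41 above the 2-fold line, and CA2 and SLC4A7 lie within the cloud.

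SLC4A7, the sodium-bicarbonate cotransporter that loads the cell with base, gave no single direction. Its brightest probe set, 209884_s_at, read 2108 on the JMJD1A/JMJD1B siRNA array and 2687 on the control array, a log2 ratio of -0.35. On the JMJD1A/JMJD1B siRNA array the other three probe sets read higher. Probe set 210286_s_at read 310.3 there and 164 on the control array (log2 ratio 0.92), and 207604_s_at read 372 with the JMJD1A/JMJD1B siRNAs and 224 with the control siRNA (0.73). Probe set 207603_at, close to the filter, read 57.9 with the JMJD1A/JMJD1B siRNAs and 46.0 with the control siRNA (0.33). None of the 4 probe sets reached 2-fold. The mean over the 4 was 0.41 ± 0.56 on the log2 scale (SD over probe sets), so the sign for the gene turned with the choice of probe set. The brightest and the next brightest differed by 1.08 on the log2 scale, a gap that 13.8% of the same 6192 genes reached. Opposite signs of the 2 brightest probe sets were found in 28.8% of these genes. The 4 SLC4A7 ratios spanned 1.27, against a median span of 0.96 over the 683 genes with 4 measured probe sets. Which SLC4A7 transcripts each probe set reports was not used here. On the hybridization control scale the 4 ratios would lie between -0.96 and 0.31, so 2 of the 3 positive ones would stay above 0.

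The ratios of the 4 genes moved with the processing in different ways. After median, quantile or loess scaling CA12 lay between 1.33 and 1.51, SLC4A2 between -3.61 and -3.53, CA2 between -0.07 and -0.04 and SLC4A7 between -0.44 and -0.31 on the log2 scale. The scaling on the hybridization controls moved every gene by 0.61. It put CA12 at 0.80, under 2-fold, and SLC4A2 at -4.14. On that scale 0 of the 4 genes would be at least 2-fold higher, beside 2.15% of all measured genes, and SLC4A2 would be 2-fold lower or more beside 27.7% of them. Over all genes the split would be 270 higher and 3483 lower, in place of 1119 and 1072 as deposited.

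**Figure D3:**
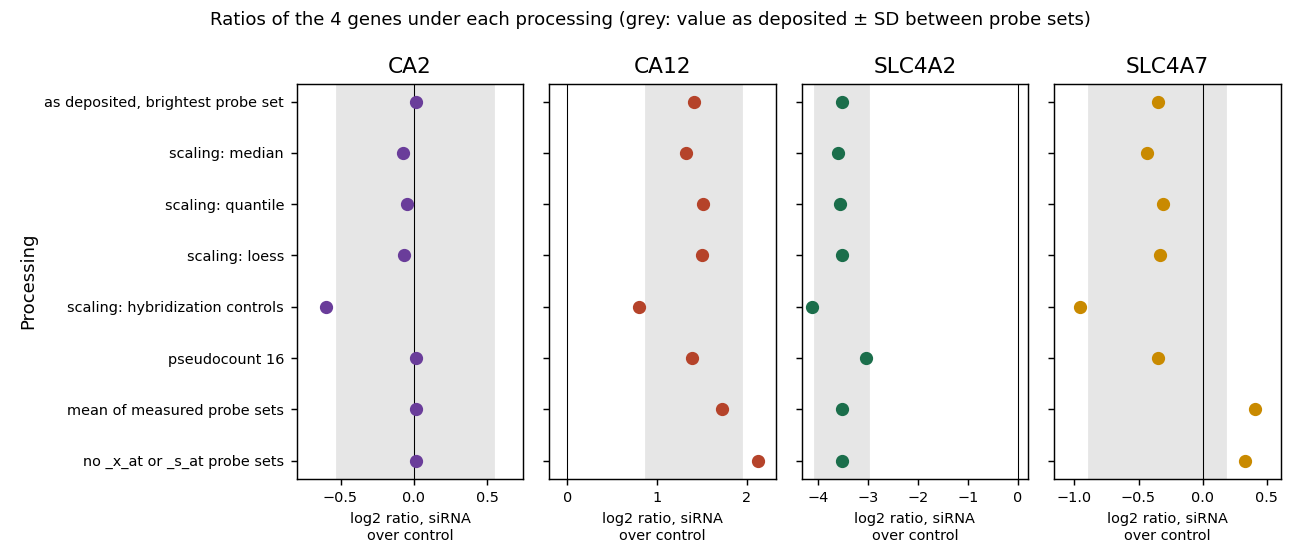
The log2 ratio (JMJD1A/JMJD1B siRNA over control siRNA, horizontal axes) of CA2, CA12, SLC4A2 and SLC4A7 as deposited and under 7 alternatives (vertical axis), with the deposited value ± the SD of 0.54 between probe sets in grey. SLC4A2 lies between -4.14 and -3.05 throughout, CA12 stays above 0 with its lowest value at 0.80, and SLC4A7 turns from -0.35 to 0.41 with the mean of its probe sets.

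Other genes that set cell pH were taken from 6 lists of 76 further genes, drawn up by family and role. Of these, 67 had a probe set of their own and 32 were measured. On the JMJD1A/JMJD1B siRNA array 1 of the 32 was at least 2-fold higher (3.12%, beside 8.91% of all measured genes), 3 were at least 2-fold lower (9.38%, beside 8.53%), and 28 changed less. One of the 3 rests on a signal under the filter (OTOP2, below), and 2 were lower with a pseudocount of 16 or with a filter of 100 on at least 1 array. After median scaling 4 were at least 2-fold lower, and on the hybridization control scale 8 were lower and 0 higher. Their median log2 ratio was 0.01, beside 0.04 for all measured genes. Both shares were near or below those of all genes. As deposited, SLC4A2 and CA12 both exceeded every listed gene in size.

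Among 12 other carbonic anhydrases 4 were measured, and the rest lay below the filter. CA8, a family member that is known to lack catalytic activity, read 187 on the JMJD1A/JMJD1B siRNA array and 91.9 on the control array, a 2.04-fold difference that fell under 2-fold after median scaling, with a pseudocount and on the hybridization control scale (log2 ratio 0.42 there). The membrane form CA14 had a log2 ratio of 0.54, the inactive relative CA11 one of 0.43, and the cytosolic CA13 one of -0.12. On the hybridization control scale CA14 and CA11 would turn to -0.07 and -0.18. In the list of bicarbonate and chloride transporters 4 of 14 were measured and none changed 2-fold on the deposited scale. SLC4A11, a relative of the bicarbonate transporters, had the largest difference and read 288 on the JMJD1A/JMJD1B siRNA array and 569 on the control array (log2 ratio -0.98, its other probe set -0.24). It passed 2-fold lower after median scaling and on the hybridization control scale, where it would stand at -1.59. Among sodium-coupled bicarbonate carriers SLC4A5 had a log2 ratio of 0.74. The control signals of SLC4A4 and SLC4A8 lay under the filter, and these genes were at least 1.75-fold and at least 1.71-fold higher against it, although a dimmer SLC4A8 probe set had a log2 ratio of -0.82. CFTR and the exchanger SLC26A3 of the colonic surface were below the filter.

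Of 14 sodium-proton exchangers and cofactors, 5 were measured and 1 was at least 2-fold lower. NHERF1, a scaffold that anchors the exchanger SLC9A3 and other transporters at the apical membrane, read 607 on the JMJD1A/JMJD1B siRNA array and 1426 on the control array, a 2.35-fold difference. SLC9A8, an exchanger of the Golgi, had a log2 ratio of -0.77 (-1.38 on the hybridization control scale, past 2-fold), and CHP1, an obligate partner of the exchangers, one of 0.18. SLC9A5 stood at 0.25 by its brightest probe set and at -1.53 by the other.

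Of 10 genes of lactate transport and lactate dehydrogenase, 6 were measured and 1 was at least 2-fold lower. EMB (embigin), known as an ancillary protein of monocarboxylate transporters, read 421 on the JMJD1A/JMJD1B siRNA array and 1047 on the control array, a 2.49-fold difference. BSG (basigin), which brings SLC16A1 and SLC16A3 to the membrane, was nearly level with 1826 on the JMJD1A/JMJD1B siRNA array and 1632 on the control array (log2 ratio 0.16). The lactate transporter SLC16A7 (MCT2) had a log2 ratio of -0.74, with its 5 probe sets between -1.04 and -0.07, and would stand at -1.35 on the hybridization control scale. LDHA, the dehydrogenase subunit that favours lactate formation, read 49333 on the JMJD1A/JMJD1B siRNA array and 29903 on the control array (log2 ratio 0.72), and LDHB read 41805 with the JMJD1A/JMJD1B siRNAs and 28319.8 with the control siRNA (0.56). Both would be close to 0 on the hybridization control scale, LDHA at 0.11 and LDHB at -0.05.

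Among 17 proton pumps, proton channels and acid sensors, 5 were measured. The proton channel OTOP2 was 2.16-fold lower by its signals, at 38.8 on the JMJD1A/JMJD1B siRNA array and 83.8 on the control array, and at least 1.66-fold against the filter. The acid-activated chloride channel PACC1 (-0.07), the acid-sensing ion channel ASIC1 (-0.09), the proton-sensing receptor GPR4 (-0.09) and the lysosomal channel TMEM175 (0.14) were nearly level on the log2 scale. Of 9 regulators of acid-base transporters 8 were measured and none changed 2-fold by its brightest probe set on the deposited scale. The largest ratios of this list were those of STK39 (0.50) and WNK4 (-0.50), both kinases of the pathway that adjusts ion cotransporters. WNK1, a kinase of the same pathway, stood at -0.47 with its 3 probe sets between -1.30 and -0.34, so one of them was past 2-fold lower. On the hybridization control scale WNK4 would stand at -1.11 and WNK1 at -1.08, both past 2-fold. AHCYL2, a relative of AHCYL1, stood at -0.17 by its brightest probe set and at 0.91 by the other. AHCYL1 (IRBIT), which is known to stimulate sodium-bicarbonate cotransporters, stood at -0.35 with its 3 probe sets between -0.45 and -0.27.

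**Figure D4:**
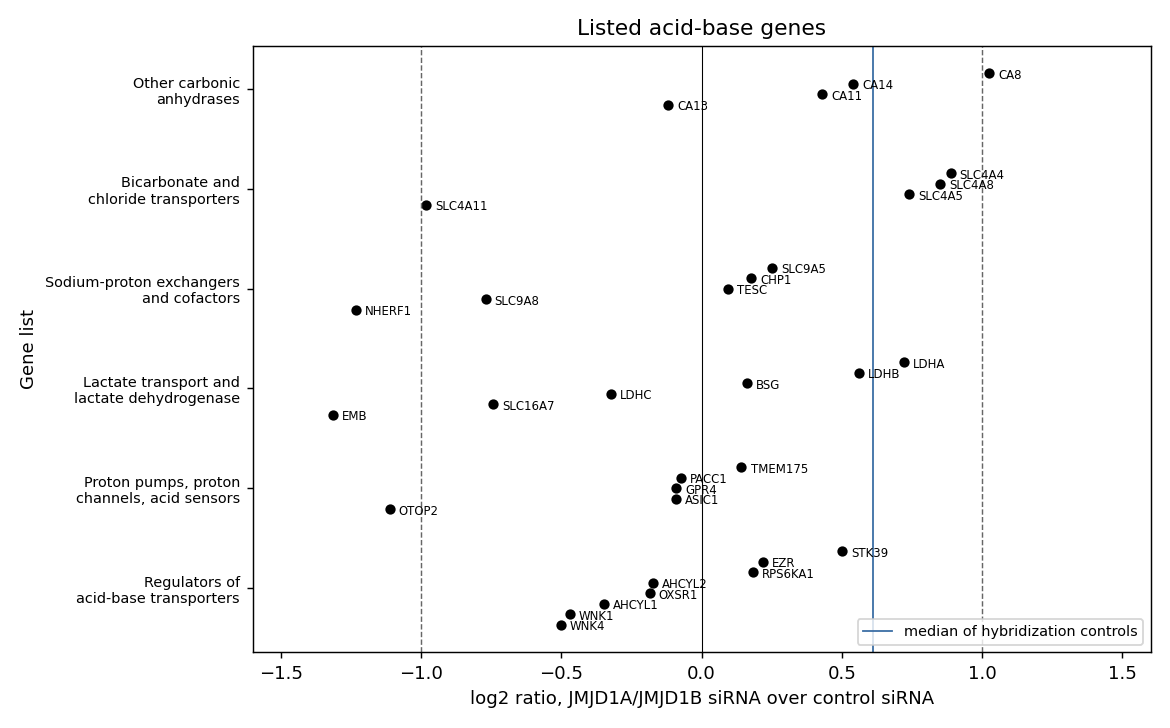
The log2 ratio (JMJD1A/JMJD1B siRNA over control siRNA, horizontal axis) of the 32 measured genes of the 6 lists, 1 point a gene by its brightest probe set, with 2-fold dashed and the hybridization control median of 0.61 as a solid line. CA8 lies past 2-fold on the higher side, and EMB, NHERF1 and OTOP2 on the lower side.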

How the data were processed

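Biotin-labelled RNA made from 0.5 ug of total RNA was hybridized to 1 single-channel array a group, per the labels. The authors deposited a linear signal intensity per probe set and array. The submitters' processing notes name MAS5. Which version and settings were used is not given in the sources used here. Trimmed means (2% off each end) were 500.1 for either array. Of the probe sets, 41091 had 1 symbol in the platform annotation, 1801 several and 11721 none.

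Ratios are log2, JMJD1A/JMJD1B siRNA minus control, with no pseudocount and the deposited scale. With 1 array a group no test was made, and changes of at least 2-fold were counted. The members, lists and settings were chosen with earlier results of these arrays known. All members, the targeted genes and, per list, up to 4 genes a direction past 2-fold, or else the largest change, were named by rule. Other genes, promoter letters and chromosomal neighbours were chosen after their values were seen or with them in view. Alternatives were 4 scalings, a pseudocount of 16, 2 probe set rules, 2 filters and folds of 1.5 and 3. Python 3.11.15, numpy 2.4.6, pandas 2.3.3 and statsmodels 0.14.6 (loess span 0.3) were used. The code for the gene table was run on simulated signals, with planted changes larger than 2-fold and less scatter than between the probe sets here. That run checks the code only and does not bear on calls near 2-fold.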

Additional observations from a re-analysis of the deposited data

Results flagged for a closer look

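Outside the gene comparison, the 18 hybridization control probe sets read more on the JMJD1A/JMJD1B siRNA array than on the control array, with a median log2 ratio of 0.61 and a range of 0.40 to 0.71. They report bacterial and phage transcripts added during the array procedure and are not part of the cells' RNA. CA12 at 1.41 lay above that median, LDHA at 0.72 slightly above it, and CA2 at 0.01 below it.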

How the results depend on the processing

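Of 28 values for CA2, CA12, SLC4A2 and SLC4A7 under 7 alternatives each, 21 stayed within the probe-set SD of 0.54 of the deposited value and 7 moved further. CA2 and SLC4A2 have 1 probe set each, not of the _x_at or _s_at kind. The 2 probe set rules therefore could not move these genes, and those values among the 21 show no stability. On the scale of the hybridization controls CA2 stood at -0.60, CA12 at 0.80, SLC4A2 at -4.14 and SLC4A7 at -0.96, by construction, and then 0 of these 4 were at least 2-fold higher, 0 listed genes higher and 8 lower, and 270 of all genes higher and 3483 lower. By the mean of probe sets SLC4A7 stood at 0.41, and without _x_at and _s_at probe sets at 0.33 with CA12 at 2.12, since other probe sets then stand for the gene. At 3-fold 0 of the 4 genes were higher. Of the 32 measured listed genes 0 were then higher and 0 lower, and of all 12561 measured genes 287 higher and 284 lower. At 1.5-fold 5 of the 32 listed genes were higher and 6 lower, and 2723 of the 12561 genes higher and 2452 lower. With no filter more genes count, 67 listed and 19775 in all. At 2-fold 11 of those 67 were then higher and 7 lower, and 3174 of the 19775 higher and 2504 lower. After median scaling and with the pseudocount of 16, 0 listed genes were at least 2-fold higher, because CA8 lay close to the threshold. SLC4A2 was at least 3-fold lower at every setting. No paired analysis was possible because each group held 1 array, and no array could be left out. Signal limits SLC4A2 on the JMJD1A/JMJD1B siRNA array, where it lay under the filter.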

Other observations

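The nearest measured protein-coding genes on each side of the 4 genes, 3 a side in the RefSeq order of GRCh38.p14, were looked up after the values of the 4 genes were known. The 6 neighbours of SLC4A2 had log2 ratios between -1.32 and 0.45. The 3 on the side of lower coordinates were lower, CDK5 at -0.26, ABCB8 at -0.95 and NOS3 at -1.32, the last past 2-fold. The 3 on the other side, FASTK at 0.37, TMUB1 at 0.45 and AGAP3 at 0.19, were higher as deposited. The hybridization control scale would lower each ratio by 0.61. All 6 would then be below 0, and ABCB8 would also be past 2-fold. The 6 neighbours of CA12 lay between -0.25 (HERC1) and 1.39 (RAB8B). RAB8B read 2593 on the JMJD1A/JMJD1B siRNA array and 987 on the control array. As deposited it was the only one past 2-fold, and on the hybridization control scale it would fall under 2-fold. CA2 lies beside CA13 in a cluster of carbonic anhydrase genes. Its 6 measured neighbours lay between -0.59 and 0.61, and none reached 2-fold as deposited. ATP6V0D2, at -0.59, would be past 2-fold lower on the hybridization control scale. Of the 6 neighbours of SLC4A7, NGLY1, the cytosolic enzyme that removes N-linked sugar chains from proteins, was past 2-fold, with 8903 on the JMJD1A/JMJD1B siRNA array and 1966 on the control array (log2 ratio 2.18), while the others lay between -0.53 and 0.91.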
